A study of Homo sapiens with 13 samples.

Results

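The 39514 CTCF peaks on chromosomes 1 to 22 and X of MDA-MB-231 cells were placed by their distance from the edges of 41008 regions marked by H3K27ac. A CTCF peak was assigned to the nearest edge by its centre, in bins of 500 bp from the inside of the regions to 20 kb outside them. Of these CTCF peaks, 21143 had their centre inside or within 20 kb of an H3K27ac region. The 2 lists hold part of the 233691 peaks listed for 6 antibodies in the series.

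MDA-MB-231 is an established human breast cancer cell line of the triple negative, basal B type, and all samples came from untreated cells in standard culture. Chromatin immunoprecipitation and sequencing (ChIP-seq) had been performed with 2 libraries for H3K27ac (antibody Ab4729) and 2 for CTCF (antibody C15410210), of 13 samples in the series. Both replicates of an antibody were merged before peaks were called, so each antibody gives 1 list of positions with no height or count per peak. The depth behind a peak is therefore unknown, the spread between replicates cannot be measured, and the intervals below cover counting error only.

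H3K27ac, acetylation of lysine 27 of histone H3, marks nucleosomes of active promoters and enhancers, and p300 and CBP are the enzymes that deposit it. CTCF, a protein with many zinc fingers, recognises a long and asymmetric DNA motif. It halts the loop extrusion driven by cohesin, and chromatin loops form mostly between CTCF motifs that point towards each other. CTCF also binds at many promoters and acts as an insulator between enhancers and genes.

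The CTCF motif was searched on both strands of every CTCF peak as CCANNAGNNGGC, where N is any base. Reading 5′ to 3′ along these letters gives the motif a direction, called inward when it runs from the edge side towards the interior of the nearest H3K27ac region. The sites shown lie in CTCF peaks within 500 bp outside H3K27ac regions that have such a CTCF peak at both edges. Each is printed on the strand of its match in hg19, with the 12 letters of the match in capitals and 4 flanking bases on each side in lower case. They show how the same core occurs in either direction at an edge.

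ABTB2, right edge, chr11:34381202-34381221, minus strand, inward: atatCCATTAGAGGGCgaca
IL6, right edge, chr7:22768245-22768264, minus strand, inward: aacaCCACTAGAGGGCcttt
ANKS6, right edge, chr9:101538306-101538325, minus strand, inward: ctagCCAGCAGAGGGCagta
GDF11, left edge, chr12:56131154-56131173, minus strand, outward: gctgCCAGCAGGAGGCacca
GDF11, right edge, chr12:56132749-56132768, plus strand, outward: tctaCCATCAGATGGCagtc

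The IL6 site overlaps an annotated IL6 exon and the ANKS6 site lies in an ANKS6 intron, while the ABTB2 site and both GDF11 sites lie between annotated genes. The names ANKS6 and GDF11 give the nearest protein-coding transcription start site (TSS), and the regions named ABTB2 and IL6 cover the TSS of that gene. IL6 encodes the cytokine interleukin 6, and GDF11 a secreted ligand of the TGF-β family.

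CTCF peaks were dense inside H3K27ac regions and in the first few bins of 50 bp outside them, and density fell steeply beyond that, to below the level set by shifted positions at over 20 kb. Inside the regions lay 6165 CTCF centres, 15.6% of all, on 71.0 Mb of sequence, which gives 86.9 per Mb (95% Poisson interval 84.7 to 89.1). The 500 bp outside an edge held 2798 centres at 70.8 per Mb (68.2 to 73.5). From 500 to 1000 bp outside, the density was 16.2 per Mb, and it was 13.8 per Mb from 15 to 20 kb outside. Beyond 20 kb from any region, where 46.5% of the CTCF peaks lay, it was 8.68 per Mb. Undetermined bases of the reference count as sequence in these densities.

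The comparison level came from 1000 circular shifts of all CTCF centres along each chromosome by at least 1 Mb, which keep the spacing of the CTCF peaks and break their relation to H3K27ac. The 2798 centres 0 to 500 bp outside compare with a mean of 558 over the shifts (474 to 644), a 5.02-fold excess. The 2965 centres 0 to 500 bp inside compare with a mean of 470 (402 to 556), a 6.31-fold excess. Both lay outside all shifts (two-sided permutation p = 0.00200, which is the lowest value obtainable from 1000 shifts, and 0.00244 after Benjamini-Hochberg adjustment over 11 tests). The fold was 1.15 from 500 bp to 5 kb outside (4331 centres against 3463 to 4021 over the shifts), 1.03 from 15 to 20 kb (within the shifts) and 0.684 beyond 20 kb (18371 centres against 25997 to 27479).

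Set directly against the density 15 to 20 kb away, the density 0 to 500 bp outside was 5.12 times higher (adjusted permutation p = 0.00244). The excess was seen on each chromosome. The fold 0 to 500 bp outside ranged from 2.94 on chromosome 19 to 9.89 on chromosome X, with a median of 5.46. Shifts of only 100 kb to 1 Mb, which stay in the same neighbourhood of genes, gave lower folds of 3.76 outside and 4.71 inside. With undetermined sequence cut out, the folds were 4.67 outside and 5.87 inside.

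**Figure D1:**
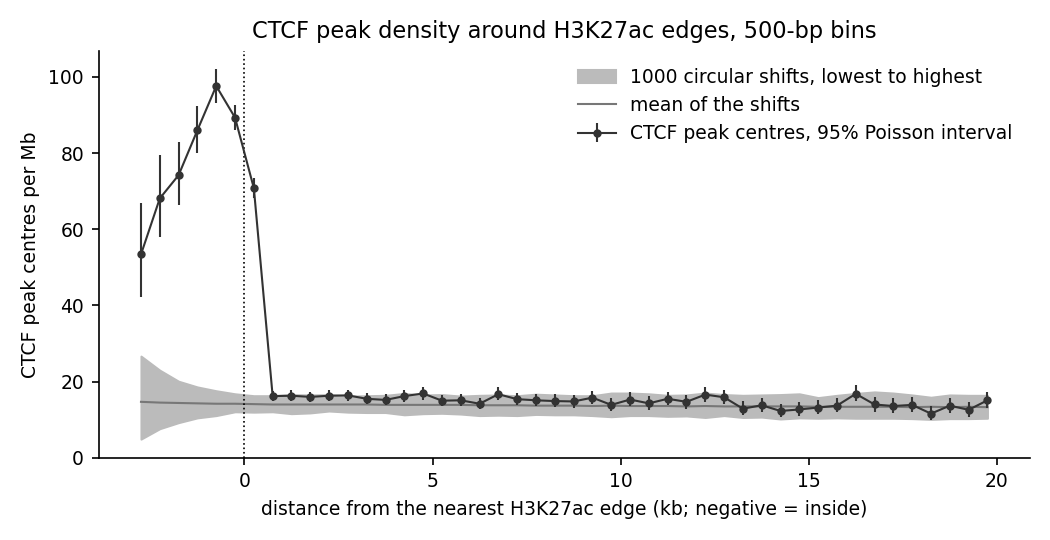
Density of CTCF peak centres (per Mb, y axis) by distance from the nearest H3K27ac edge (kb, negative inside) in 500-bp bins, with 95% Poisson intervals, over the mean and full range of 1000 circular shifts in grey. The density falls from 70.8 per Mb in the first bin outside to 16.2 per Mb in the second.

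In bins of 50 bp, the CTCF peaks formed a maximum on either side of the edge with a minimum between them. At regions without a nearby TSS, the density was highest 50 to 100 bp outside the edge, at 182 per Mb (521 centres). It fell to 34.6 per Mb (99 centres) 50 to 100 bp inside, still 2.5 times the shift mean, and rose again to 129 per Mb (218 centres) 400 to 450 bp inside. At regions near a TSS, the density was 101 per Mb (125 centres) 50 to 100 bp outside, 40.5 per Mb (50 centres) 50 to 100 bp inside and 160 per Mb (154 centres) 450 to 500 bp inside. Both classes of region thus had their minimum in the same 50-bp bin, just inside the edge. Narrow regions do not reach the deeper bins, so the bins inside and outside come from partly different regions. At TSS-distal regions, the sequence was 1.69 Mb 400 to 450 bp inside and 2.87 Mb 50 to 100 bp outside. No 50-bp profile by width was made. Outside, the density came under 2 times its mean at 500 to 2000 bp from 300 bp at regions near a TSS and from 350 bp at the others.

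The edge is itself set by peak calling, since H3K27ac stretches less than 500 bp apart were joined and every position falls on a grid of 50 bp. Of the 2798 CTCF peaks with their centre 0 to 500 bp outside, 1591 (56.9%) overlapped the region with some of their length. Taking the nearest base of each CTCF peak in place of its centre lowered the fold outside to 2.52 and raised that inside to 7.42. The part of peak calling in the minimum at the edge was not tested.

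**Figure D2:**
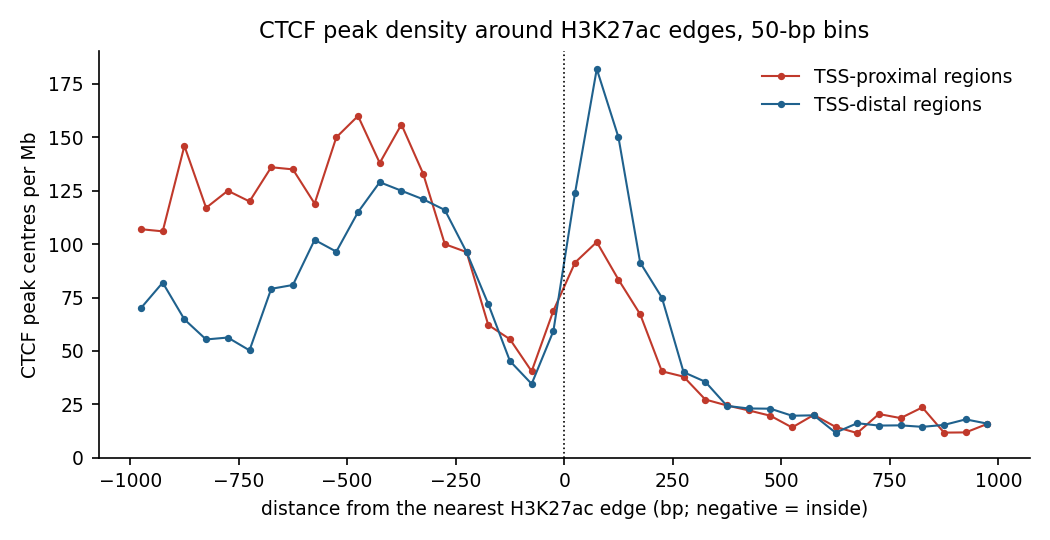
Density of CTCF peak centres (per Mb, y axis) by distance from the nearest H3K27ac edge (bp, negative inside) in 50-bp bins, for TSS-proximal regions in red and TSS-distal regions in blue. In both classes a minimum, of 40.5 and 34.6 per Mb, lies 50 to 100 bp inside the edge, between a maximum outside and higher values deeper inside. The deeper bins hold only the wider regions.

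H3K27ac regions within 1.5 kb of a protein-coding TSS, called TSS-proximal, numbered 12357 (30.1%) with a median width of 1850 bp. The other 28651 regions (69.9%), called TSS-distal, had a median width of 1050 bp. Of the TSS-proximal regions, 96.8% of those with no CTCF centre inside or 0 to 500 bp outside overlapped an H3K4me3 peak, the mark of promoters, as did 98.9% of those with a CTCF centre inside. Of the TSS-distal regions with no such CTCF centre, 95.1% overlapped a peak of H3K4me1, the mark of enhancers, and 23.8% one of H3K4me3. The shares were 92.2% and 57.8% for TSS-distal regions with a CTCF centre inside. They were 83.8% and 36.0% for those with one 0 to 500 bp outside at least 1 edge.

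Inside TSS-proximal regions the CTCF density was 109 per Mb (7.38-fold over the shift mean) and, over the first 3 kb of depth, highest 500 to 1000 bp from the edge, at 127 per Mb (119 to 136). Deeper bins held at most 28 centres each, with up to 244 per Mb from 2 centres. Outside, the first 500 bp held 622 centres at 52.9 per Mb (48.9 to 57.3), a 3.62-fold excess over 172 in the shifts. TSS-distal regions had 73.5 per Mb inside (5.26-fold). Their density by bin of depth fell from 85.1 per Mb (81.3 to 89.0) in the first 500 bp to 47.0 per Mb (39.0 to 56.3) 1500 to 2000 bp inside. Only wider regions reach the deeper bins, so these bins hold different regions. In TSS-distal regions of at least 4 kb, the density was 51.7 per Mb in the first 500 bp and 65.0 from 500 to 1000 bp. It was 48.5 from 1000 to 1500 bp and 38.0 deeper. Outside, the first 500 bp of TSS-distal regions held 2176 centres at 78.4 per Mb (75.1 to 81.7), a 5.64-fold excess over 386 in the shifts. In the first 500 bp inside the edge, the fold was 6.66 at TSS-proximal and 6.12 at TSS-distal regions. The folds within 500 bp of an edge, inside and outside and in both classes, lay outside the range of the shifts (adjusted permutation p = 0.00244).

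The fold outside the edge was lower at TSS-proximal than at TSS-distal regions, with a ratio of 0.642 against 0.726 to 1.37 over the shifts (adjusted permutation p = 0.00244). It was higher at TSS-distal regions on 22 of 23 chromosomes. The classes differ in width, and within ranges of width the ratio did not pass the test. Whether width accounts for the ratio was not tested. In regions of 200 to 500 bp the fold was 8.85 for TSS-proximal and 12.4 for TSS-distal regions, a ratio of 0.713 (adjusted permutation p = 0.621 over 4 ranges). In regions of 550 to 1000 bp the folds were 5.81 and 5.41, a ratio of 1.07 (adjusted permutation p = 0.771). In regions of 1050 to 2000 bp they were 2.92 and 2.59, and in wider regions 2.41 and 2.14, both with a ratio of 1.13 (adjusted permutation p = 0.621). The ranges of width were set after looking at the data.

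In both classes the narrowest regions had the highest CTCF density outside their edges. TSS-distal regions of 200 to 500 bp had 1234 CTCF centres in the first 500 bp outside, 170 per Mb, and those of 2000 bp or more had 200 centres at 29.4 per Mb. Among TSS-proximal regions, the narrowest quartile (200 to 1050 bp) had 102 per Mb outside. The next quartiles had 39.8 and 29.9 per Mb and the widest (2800 bp or more) 41.4 per Mb, so the density did not fall steadily with width. In the first 500 bp inside TSS-distal regions, the density was 79.4 per Mb in the narrowest quartile, 143 per Mb in the next and 50.6 per Mb in the widest. Regions with a CTCF centre 0 to 500 bp outside had a median width of 550 bp, those with a CTCF centre inside 2050 bp and those with neither 1250 bp.

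**Figure D3:**
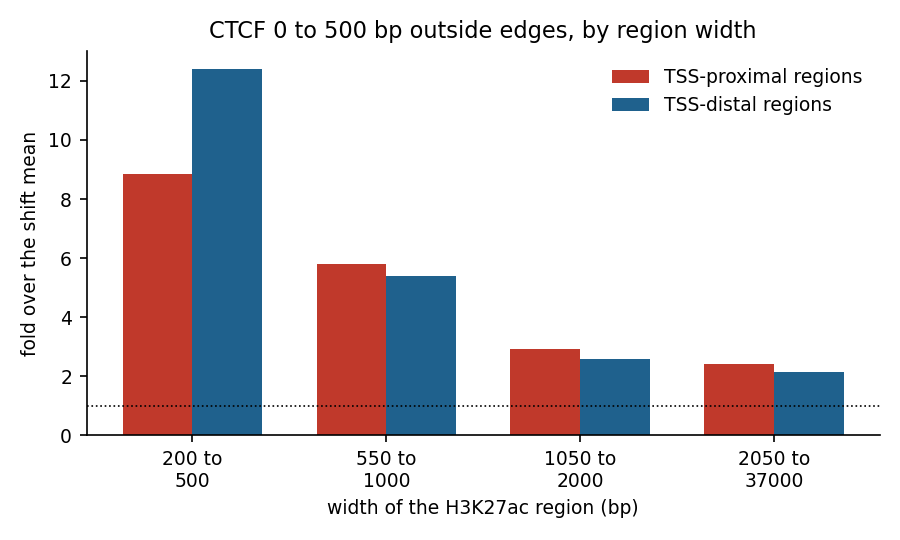
CTCF centres 0 to 500 bp outside H3K27ac edges, as fold over the mean of 1000 circular shifts (y axis), by width of the region (bp, x axis) for TSS-proximal (red) and TSS-distal (blue) regions, with a dotted line at 1. The fold falls with width in both classes, from 8.85 and 12.4 in the narrowest regions to 2.41 and 2.14 in the widest.

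In the 3132 regions of at least 4 kb, where depth inside can be followed, the CTCF density in the bin next to the edge was below that of the following bin. The density was 52.0 per Mb (44.4 to 60.7) in the first 500 bp inside, 87.8 (77.7 to 98.8) from 500 to 1000 bp, 76.0 (66.6 to 86.3) from 1000 to 1500 bp and 60.2 (55.5 to 65.3) deeper. The ratio of the first 500 bp to the interior beyond 1500 bp was 0.864, within the 0.559 to 1.75 of the shifts (permutation p = 0.474). With 250 bp next to the edge in place of 500 bp, that ratio was 0.445 (adjusted permutation p = 0.0111). Between the first 500 bp and the interior beyond 1500 bp, the classes went opposite ways, which the pooled ratio averages. TSS-proximal regions had 52.5 per Mb (40.6 to 66.9) in the first 500 bp and 95.1 per Mb (85.6 to 105) beyond 1500 bp. TSS-distal regions had 51.7 per Mb (41.9 to 63.1) and 38.0 per Mb (33.3 to 43.3). From 500 to 1000 bp inside, both classes were above their first 500 bp. The density there was 122 per Mb (103 to 143) at TSS-proximal regions. At TSS-distal regions it was 65.0 per Mb (54.0 to 77.6), an interval that overlaps that of the first 500 bp. The ratio was not tested by class.

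Around 7055 regions that cover 1 protein-coding TSS, edges could be named by the direction of transcription. CTCF was denser outside the upstream edge, with 161 centres at 46.2 per Mb (39.4 to 53.9), than outside the downstream edge, with 95 centres at 27.4 per Mb (22.2 to 33.5). The ratio of 1.69 compares with 0.455 to 2.34 over the shifts (permutation p = 0.0140, adjusted p = 0.0154). It did not pass the test, at adjusted permutation p from 0.0989 to 0.224, in 3 alternatives. The ratio was 1.32 with the nearest base of the CTCF peak, 1.36 in regions at least as wide as the median and 1.81 with the TSSs of all GENCODE basic transcripts. From 500 bp to 2 kb the densities were 19.3 per Mb (16.6 to 22.3) upstream and 10.8 per Mb (8.85 to 13.1) downstream. The latter was 0.747 of the shift mean. From 5 to 20 kb they were 17.7 and 14 per Mb.

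Of all H3K27ac regions, 6.62% (2716) had a CTCF centre 0 to 500 bp outside at least 1 edge, 4.89% of TSS-proximal and 7.37% of TSS-distal regions. Both edges had one in 50 regions, which is 0.122% of all, 0.0809% of TSS-proximal (10) and 0.140% of TSS-distal regions (40). The shifts gave a mean of 4.81 such regions and at most 14, a 10.4-fold excess (adjusted permutation p = 0.00244). Single edges had CTCF at 3.25% on the left and 3.50% on the right, and the product of these shares over all regions is 46.6 regions. The observed 50 are 1.07 times that product. The product takes all regions to have the same shares, although CTCF density outside edges differed with width. At TSS-distal regions it was 170 per Mb for widths of 200 to 500 bp and 29.8 per Mb for 2050 to 37000 bp. No product was made within ranges of width, so whether CTCF at the left and right edges is paired was not tested. The median width of the 50 was 450 bp (200 to 7550 bp), and 6 of the 50 lie within 100 kb of at least 10 kb of undetermined sequence.

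Distances at single regions are those of the middle of the 50-bp bin that holds the CTCF centre. Of the regions with CTCF at both edges, 4 covered a protein-coding TSS. The widest, at ARID5B, which encodes a DNA-binding protein, spans chr10:63656951-63664501 (7550 bp) and has CTCF centres 75 bp outside the left edge, 275 bp outside the right edge and 5 inside. The region at ABTB2, chr11:34378051-34380951, has CTCF centres 175 and 75 bp outside its edges and none inside. At IL6, chr7:22765701-22768051 (2350 bp), they lie 275 and 175 bp outside, with 1 inside. The region at NUDT17, chr1:145588801-145589701, is 900 bp wide, with centres 75 and 175 bp outside and 1 inside.

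Of the TSS-distal ones, the 6 widest (chosen as given in the methods) were 900 to 3100 bp wide. The widest, chr9:34253201-34256301, lies 73.0 kb from the TSS of KIF24, a kinesin gene, with CTCF centres 75 and 25 bp outside and 1 inside. The region chr22:51059101-51060701 lies 5.88 kb from the TSS of ARSA, the gene of the lysosomal enzyme arylsulfatase A, with centres 25 and 225 bp outside. The region chr12:56131401-56132701, 4.21 kb from the GDF11 TSS, has centres 225 and 25 bp outside. The region chr9:101537301-101538201, 20.6 kb from the ANKS6 TSS, has them 25 and 125 bp outside. The other 2 lie close together at chr2:92319951-92321501 and chr2:92323301-92324401, over 3 Mb from any protein-coding TSS, with 3 and 2 CTCF centres inside. The 6 regions near undetermined sequence were counted without being named, and these 2 may be among them. Whether reads map reliably there was not tested.

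Within 500 bp of H3K27ac edges, more CTCF motifs pointed inward than outward. A match to CCANNAGNNGGC was present in 26.6% of all CTCF peaks, against 0.763% of windows of 300 bp (the median CTCF width) tiled over the genome. The share was 28.6% (26.9 to 30.3) 0 to 500 bp outside edges, 23.5% (22 to 25) 0 to 500 bp inside, 14% (12.8 to 15.2) deeper inside and 28.2% (27.6 to 28.9) beyond 20 kb. The share deeper inside had an interval below those of the other zones. With the looser CCNNNAGNNGGC, the shares were 43.4% (41.5 to 45.2) 0 to 500 bp outside, 31.8% (30.2 to 33.4) deeper inside and 37.5% (36.8 to 38.2) beyond 20 kb. A peak without a match says only that these letters are not in it.

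Among the 780 CTCF peaks with exactly 1 match 0 to 500 bp outside an edge, the motif pointed inward in 518, or 66.4% (95% Wilson interval 63.0 to 69.6). From 0 to 500 bp inside it pointed inward in 407 of 670, or 60.7% (57.0 to 64.4). The share was 54.3% (49.6 to 59.0) deeper inside, 51.2% (48.3 to 54.0) from 500 bp to 5 kb outside and 47.8% (45.7 to 49.9) from 5 to 20 kb. These shares are descriptions, with no test. The inward share 0 to 500 bp outside was over 50% on 22 of 23 chromosomes. From 500 bp to 5 kb outside it was over 50% on 13 of them.

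The inward share 0 to 500 bp outside was 66.1% (57.0 to 74.1, 115 peaks) at TSS-proximal and 66.5% (62.8 to 70.0, 665 peaks) at TSS-distal regions. By width, it was 68.3% (63.8 to 72.4) at regions of up to 500 bp, 60.8% (52.7 to 68.5) up to 1000 bp, 70.5% (61.2 to 78.4) up to 2000 bp and 61.7% (51.6 to 70.9) over 2000 bp, with no steady trend. In 100-bp bins it was highest 100 to 200 bp outside, at 71.9% (65.9 to 77.2, 242 peaks). Farther away, the classes went apart. The share was 43.1% (39.8 to 46.5) from 5 to 20 kb of TSS-proximal regions, so most motifs there pointed outward, and 50.7% (48.0 to 53.4) at TSS-distal regions. Of the 50 regions with CTCF at both edges, 3 had exactly 1 match at each edge, 1 with both motifs outward, the GDF11 region, and 2 with 1 of each direction.

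**Figure D4:**
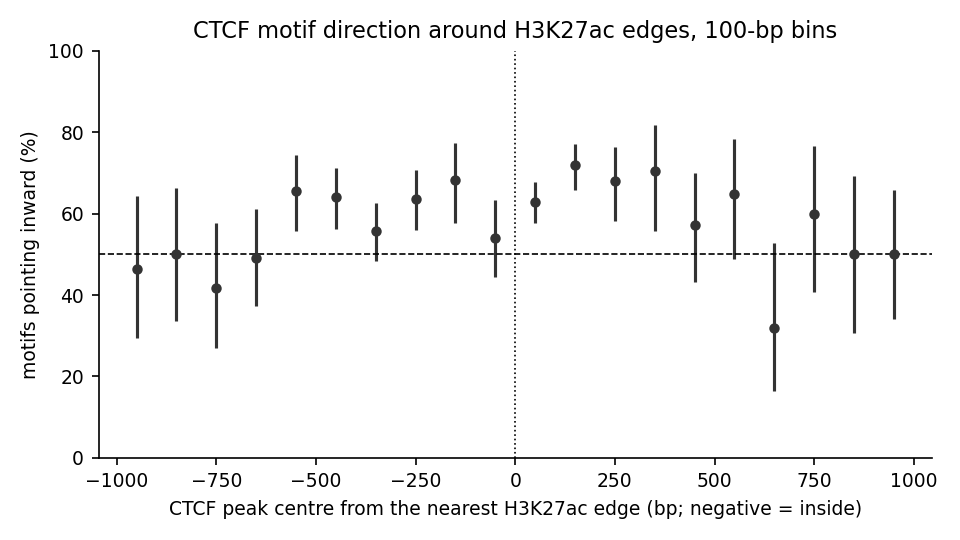
Share of CTCF motifs pointing inward (%, y axis) by distance of the CTCF peak centre from the nearest H3K27ac edge (bp, negative inside) in 100-bp bins, for peaks with exactly 1 match, with 95% Wilson intervals and a dashed line at 50%. The share is 71.9% in the bin 100 to 200 bp outside and 50% from 900 to 1000 bp outside.

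CTCF peaks beside H3K27ac edges also lay on other marks. Of those 0 to 500 bp outside TSS-distal regions, 69.5% (67.5 to 71.4) overlapped an H3K4me1 peak, 24.8% (23 to 26.7) an H3K4me3 peak, 11.8% (10.5 to 13.2) an RNA polymerase II (Pol II) peak and 3.35% (2.68 to 4.20) a p300/CBP peak. Beyond 20 kb the shares were 9.97%, 2.20%, 0.671% and 0.763%. Outside TSS-proximal regions, 56.9% (53.0 to 60.8) overlapped H3K4me3 and 35.7% (32 to 39.5) Pol II, and 0 of 622 overlapped p300/CBP, which allows a share of up to 0.482% (3 counts). Inside the regions, p300/CBP overlapped 0.410% of the CTCF peaks at TSS-proximal and 6.43% at TSS-distal ones.

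For p300/CBP, profiled with 1 library, the 13719 peaks had another profile across the same edges. Their density was 27.9 per Mb 0 to 500 bp outside (5.88-fold over their own shifts) and 23.8 per Mb 0 to 500 bp inside (5.05-fold). It was 210 per Mb 1500 to 2000 bp inside (43.8-fold), where CTCF was at 74.2 per Mb (5.15-fold). Only wider regions reach that bin, with 4.33 Mb of sequence against 33.2 Mb in the first 500 bp inside. A p300/CBP profile of wide regions alone was not made, so depth and width are not separated here. The 2 profiles were not tested against each other. CTCF had a like excess on the outer side of other marks, 3.62-fold 0 to 500 bp outside H3K4me1 regions and 5.80-fold outside H3K4me3 regions.

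**Figure D5:**
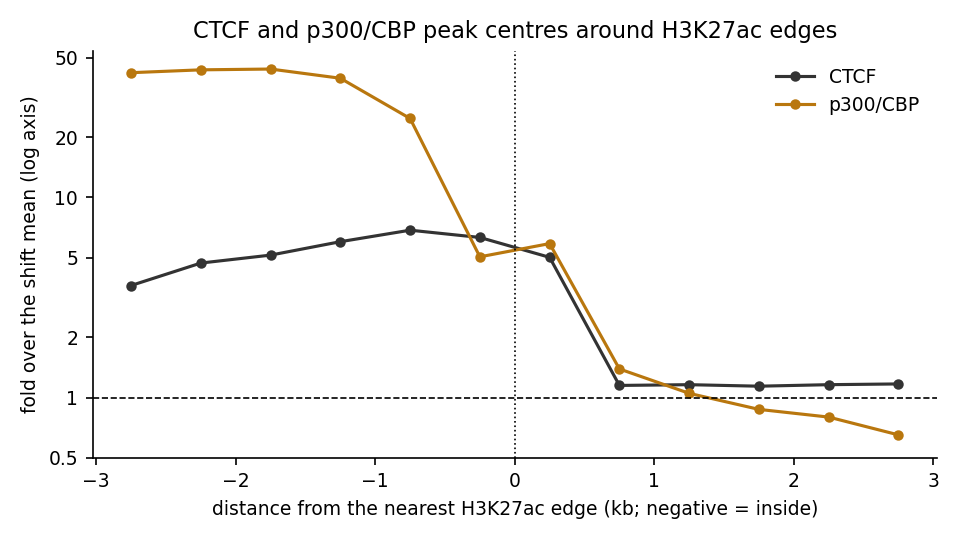
Peak centres of CTCF (dark) and p300/CBP (orange) as fold over the mean of their own circular shifts (y axis, log scale) by distance from the nearest H3K27ac edge (kb, negative inside), in 500-bp bins, with a dashed line at 1. Both are near 5 in the bins next to the edge, and only p300/CBP reaches 43.8 inside. The deeper bins hold only the wider regions.

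At the promoters of 45 genes in 5 lists (5 of the genes whose promoter contacts the study mapped by chromosome conformation capture, AP-1 members, mesenchymal and basal genes, targets of the coactivator YAP and TEAD factors, and cohesin and CTCF genes), an H3K27ac region covered the canonical TSS of 29. Of these regions, 14 (48.3%) had a CTCF centre inside, against 24.9% of all 8209 regions over a protein-coding TSS. None of the 29 had one 0 to 500 bp outside, which allows a share of up to 10.3% (3 counts), and the share over all such regions was 3.34%. The 14 regions with CTCF inside had a median width of 6775 bp and the other 15 of 3200 bp, against 2250 bp for all regions over a TSS. Of the 16 genes without a region over the canonical TSS, 13 had one within 1 kb.

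Of the 5 genes taken from the conformation capture experiment, a subset of those captured, 3 had a region over the TSS, each with CTCF inside. CD44, also captured and counted here with the mesenchymal and basal genes, had none inside. At EDN1, which encodes the vasoconstrictor peptide endothelin 1, a 10100 bp region held 5 CTCF centres, 4 of them nearest the upstream edge. At HES1, a repressor downstream of Notch, the 4650 bp region held 1, 225 bp inside the downstream edge. At SSFA2 (ITPRID2) it held 1, 1275 bp inside. The canonical TSS of FOSL1, the gene of Fra-1, lay 159 bp from a region of 13400 bp that held 4 CTCF centres.

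Of the AP-1 genes, JUN, JUNB and BATF3 had CTCF inside and FOS had none, among 4 with a region. The JUNB region had its CTCF centre 275 bp inside the upstream edge. JUND, with its canonical TSS 382 bp from the nearest region, had CTCF inside that region and outside 1 of its edges. Of the 9 mesenchymal and basal genes with a region, VIM, which encodes the intermediate filament protein vimentin, was the one with CTCF inside, with 3 centres in 9700 bp. Wide regions without CTCF lay at AXL (13700 bp), a receptor tyrosine kinase gene, at CAV1 (9850 bp), which encodes caveolin 1, and at CD44 (7450 bp), which encodes the hyaluronan receptor.

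Of 6 YAP and TEAD target genes with a region, 4 had CTCF inside. They were CCN1, AMOTL2, AJUBA and F3, each with 2 centres. ANKRD1 (9700 bp) and LATS2 (1000 bp) had none. Of the 7 cohesin and CTCF genes with a region, STAG1, STAG2 and NIPBL had CTCF inside, and RAD21, SMC1A, SMC3 and WAPL had none. STAG1 and STAG2 encode alternative cohesin subunits, and NIPBL the loader of cohesin. The CTCF gene itself had its canonical TSS 472 bp from an H3K27ac region with 1 CTCF centre inside.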

How the data were processed

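Reads had been aligned to hg19 by the authors, who used PASHA to turn those mapping uniquely into a binned signal (50 bp), pooled both replicates and called peaks by thresholding, at a threshold of 50 for both antibodies. The paper names BWA-backtrack, and the submitters' processing notes name Bowtie2. The H3K27ac signal had been scaled and background subtracted, and the label of the CTCF list records neither step. Gaps of up to 500 bp were joined for H3K27ac and of 50 bp for CTCF. The deposited lists give the start and end of each peak and no measured value. They hold 39596 CTCF and 13984 p300/CBP peaks over all chromosomes, for each more than the paper reports. The reason for the difference was not tested.

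All positions are 1 past a multiple of 50, and the end was taken as the first base after the peak. Each CTCF centre was set to the middle of its 50-bp bin. Centres that fall on the grid were thus read slightly too near left edges and too far from right edges when outside. The shares of left and right edges with CTCF carry the same offset. Distances, shifts and densities were computed with NumPy 2.4.6 and SciPy 1.17.1 under Python 3.11.15, and plots drawn with matplotlib 3.10.9. TSSs were 19894 canonical protein-coding ones of GENCODE release 44 mapped to GRCh37, and sequences were read from GRCh37. Each of 1000 seeded circular shifts moved the centres on a chromosome by 1 offset. Adjustment covered 11 tests at a threshold of 0.05. Motif alternatives, which share letters with the main motif, were CCANNAGGNGGC (0.246% of genome windows) and CCNNNAGNNGGC (2.19%). Other alternatives changed the point of the CTCF peak, the shifts, the width and joining of peaks, the TSSs and the bins. The distance and shift functions were tested on simulated data.

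The regions named singly were the 6 widest over a TSS, of which there were 4, and the 6 widest TSS-distal ones, with CTCF outside both edges, chromosome 8 left out. The comparison, members and gene lists were chosen with earlier results of these data known.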

Additional observations from a re-analysis of the deposited data

Results flagged for a closer look

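The fold 0 to 500 bp outside TSS-proximal edges divided by that at TSS-distal edges, 0.642, was taken up because the same excess differed between the classes in the test of the difference itself (adjusted permutation p = 0.00244). The densities were 52.9 and 78.4 CTCF centres per Mb. Width moved with class, at a median of 1850 bp against 1050 bp, and within the 4 ranges of width the ratio was 0.713 to 1.13, with adjusted permutation p from 0.621 to 0.771.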

How the results depend on the processing

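No paired analysis was possible because the peaks of each antibody were called once, on its merged replicates, so that leaving out a single replicate was not possible either. Of 129 alternative values of 12 results, 116 kept their direction and their side of the threshold (for the motif direction, which has no test, their place within the 95% interval), and every fold near an edge did so, at 2.37 to 7.79 outside and 4.33 to 7.42 inside over all regions. The ratio of TSS-proximal to TSS-distal fold outside was 0.831 by the nearest base of the CTCF peak (adjusted permutation p = 0.0855), 1.12 in regions at least as wide as the median, and 0.713, 1.07, 1.13 and 1.13 in ranges of rising width. The ratio of upstream to downstream density was 1.32 by the nearest base, 1.36 in regions at least as wide as the median and 1.81 with the TSSs of all basic transcripts, none past the threshold. In regions of at least 4 kb, the density next to the edge over that deep inside was 0.445 in a 250-bp bin (past the threshold). It turned direction, short of the threshold, to 1.81 by the nearest base, 1.01 with CTCF peaks of at least the median width and 1.28 with regions less than 2 kb apart joined. The cause was not tested. The excess of regions with CTCF at both edges ranged from 3.89 to 19.3, and the inward share of motifs from 64 to 66.7%. Ranges of width and the removal of gaps under 2 kb were chosen after seeing the data. Positions without counts set no depth, so weak peaks and their errors could not be judged.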

Other observations

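Among 19419 gaps of over 20 kb between neighbouring H3K27ac regions, 58.6% (57.9 to 59.3, Wilson) held a CTCF centre, against 4.75% (4.16 to 5.43) of the 4335 gaps of 500 to 1000 bp. Per Mb the order was the opposite, with 74.6 centres in the shortest gaps, 21.6 in gaps of 5 to 20 kb and 10.9 in the longest. All sequence in gaps of 500 to 1000 bp lies within 500 bp of an edge, so their density is a density beside edges. Longer gaps also hold sequence farther out, and this order is no separate result from the excess beside edges. In the first 500 bp outside TSS-proximal edges, the density was 99.9 per Mb (82.4 to 120) beside gaps of 500 to 1000 bp, 33.1 (19.6 to 52.2) beside gaps of 1 to 2 kb, 53.2 (38.9 to 70.9) at 2 to 5 kb and 48.3 (43.9 to 53.0) beside gaps of over 5 kb. At TSS-distal edges it was 57.8 (47.0 to 70.4), 49.6 (39.7 to 61.2), 68.3 (59.8 to 77.6) and 84.1 per Mb (80.2 to 88.1) in the same ranges. These densities were not tested between classes.

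Beyond 20 kb from TSS-proximal regions, 42.9% (40.7 to 45.2) of 1807 CTCF motifs pointed towards the nearest region, and beyond 20 kb from TSS-distal regions 48.8% (47.1 to 50.5) of 3230. Over both classes the inward share there was under 50% on 21 of 23 chromosomes.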
